A study of Mus musculus with 6 samples.

Results

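Chromocenter heterochromatin factors are described here in WT and Trf2-/- mouse testis. They are 10 genes named by symbol for roles in heterochromatin, and some of them act mainly or also outside the satellite DNA of chromocenters. They are Cbx1, Cbx3 and Cbx5, which encode the HP1 proteins, the histone methyltransferase genes Suv39h1, Suv39h2, Suv420h1, Suv420h2 and Ehmt2, the corepressor gene Trim28 and the chromatin remodeller gene Atrx. All 10 were found among the 26743 genes of the count table, and all 10 passed the filter on low counts that left 16924 genes for testing.

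The chromocenter is the body in which the pericentric satellite repeats of several chromosomes gather, and in round spermatids it is a single compact structure. At such repeats SUV39H enzymes methylate histone H3 at lysine K9, HP1 proteins bind that mark through their chromodomain, and SUV420H enzymes, which HP1 proteins recruit, methylate histone H4 at lysine K20. TRIM28 brings HP1 and a further H3K9 methyltransferase to the DNA sites of KRAB zinc finger proteins, and ATRX deposits the histone variant H3.3 at pericentric and telomeric repeats together with DAXX.

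Total RNA of the entire testis was sequenced at post natal day 21 in 3 WT males and 3 Trf2-/- males. Trf2, listed as Tbpl1, encodes a TBP-related protein of germ cells and is inactivated in the mutant mice, and the comparison asks which transcripts depend on it. The labels name no strain, the study's methods give a 129/SvPas background where they describe its tagged mice, and each library came from a whole organ, so a lower share of cells of 1 type and less RNA per cell cannot be told apart. Counts on genes ran from 21582123 to 29859347 in WT mice and from 15187062 to 24530489 in Trf2-/- mice. Levels are given as CPM, the counts scaled to a common library size after TMM normalization, and levels of different genes are set side by side only as CPM per kb of the deposited gene length.

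The inactivated gene was checked first. Tbpl1 levels were 308, 283 and 294 CPM in WT and 62.9, 64.3 and 55.8 CPM in Trf2-/- testis, so the mutant mice lay well below WT. Its log2 fold change was -2.27 (SE 0.06, adjusted p = 1.18e-06 by edgeR's quasi-likelihood test with Benjamini-Hochberg adjustment). Slc2a12, which the study describes as partially overlapping the Trf2 gene, was higher in the mutants. It stood at 13.2 ± 0.491 CPM (SD, n = 3) in WT and 17.3 ± 0.484 CPM (SD, n = 3) in Trf2-/- testis. Its log2 fold change was 0.39 (SE 0.08, adjusted p = 0.00636 by the same edgeR test). Markers of the cells of the testis were present. The summed level of 7 round spermatid markers was 66.0 to 70.8 CPM in WT and 28.7 to 43.4 CPM in Trf2-/- testis, and 6 of the 7 fell, with a median of -2.49 on the log2 scale. That median rests on genes near the floor: Acrv1, Spaca3, Catsper3, Catsper4 and Tssk2 had means of at most 1.29 CPM in WT. In Trf2-/- testis their means were 0.0418 to 0.138 CPM, where 3 counts equal 0.119 to 0.190 CPM. Acr, the most abundant marker, fell from 56.3 to 31.0 CPM (log2 fold change -0.85), and Spaca1, the next, did not pass (-0.22). The 3 tested genes of the 8 elongating spermatid markers fell, from a summed level over the list of 5.81 to 6.97 CPM to one of 0.885 to 1.54 CPM, and 2 of the listed genes had at most 3 counts in every mouse. Of 7 pachytene spermatocyte markers 6 fell, and their sum went from 5800 to 6282 CPM in WT to 3870 to 4714 CPM in the mutants. Among 6 tested early spermatocyte markers 2 rose and 1 fell, with sums of 1542 to 1577 CPM and 1638 to 1714 CPM, and 1 of 7 spermatogonial markers rose, with sums of 248 to 265 CPM and 256 to 341 CPM. In the somatic lists 3 of 6 Sertoli cell markers (389 to 415 CPM in WT, 453 to 500 CPM in Trf2-/-), 1 of 6 Leydig cell markers (181 to 360 and 185 to 326 CPM), 1 of 4 peritubular markers (269 to 345 and 338 to 389 CPM) and 4 of 6 macrophage markers (160 to 184 and 184 to 362 CPM) rose. Of 4 T cell markers 3 had at most 3 counts in every mouse and the other did not pass the test, with sums of 1.61 to 2.20 CPM and 1.33 to 3.49 CPM. The part of these shifts in the values below was not tested.

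In RNA of the entire testis the transcripts of these factors changed little. Of the 10 genes 4 (40.0%) passed an adjusted p of 0.05, beside 31.4% of all tested genes. Trim28 and Ehmt2 fell, beside 20.2% of tested genes that fell, and Atrx and Cbx1 rose, beside 11.2% that rose. The call of Cbx1 was the least firm, as given below. None reached a change of 2-fold by edgeR's quasi-likelihood test, beside 4.90% of tested genes, while 4 had an unadjusted p under 0.05. DESeq2 also called 0 at 2-fold, and 3 at the adjusted p alone. The 95% intervals of the 10 log2 fold changes lay between -0.42 and 0.49, so changes of 2-fold in either direction lay outside all of them.

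The median log2 fold change of the 10 genes was 0.08, against 0.04 over all tested genes, and the median size of change was 0.15, against 0.21. The values of 8 genes were above 0 and those of 2 were below. In 5 of the 10 the CPM of the genotypes did not overlap, beside 49.2% of all tested genes. The shares called depended on scaling. Among all genes past the adjusted p 64.4% were lower with TMM and 38.7% with library size alone, which moved the median of all genes to 0.13 on the log2 scale. With library size alone Suv39h1 and Suv39h2 also passed, while Trim28 and Ehmt2 remained lower and Atrx and Cbx1 higher.

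**Figure D1:**
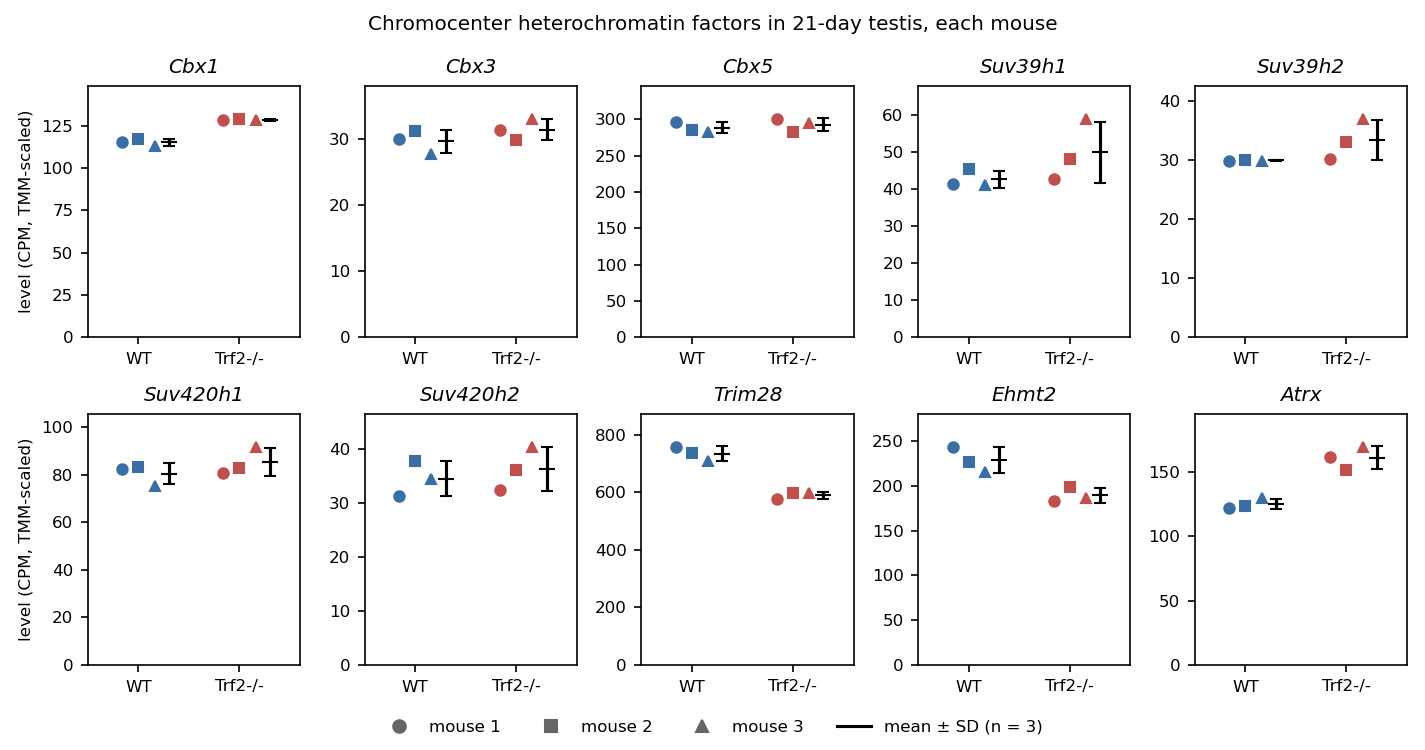
Level in CPM of each of the 10 genes in each mouse, with 1 symbol for each of the 3 WT and 3 Trf2-/- mice and bars for the mean ± SD. The genotypes are separated in Trim28, Ehmt2, Atrx, Cbx1 and Suv39h2 and overlap in the other genes.

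In WT testis the levels per kb spanned a wide range. Trim28 was highest at 227 CPM per kb, followed by Ehmt2 at 49.4, Cbx5 at 32.1, Cbx1 at 30.2, Cbx3 at 14.1, Suv420h2 at 12.0, Atrx at 9.44, Suv420h1 at 8.60, Suv39h1 at 8.57 and Suv39h2 at 6.79 CPM per kb. In this order the ranges of Cbx3 and Suv420h2 overlapped, as did those of Suv420h1 and Suv39h1, and the other neighbours were separated in the 3 WT mice. The lowest of the 10 stood above 50.9% of the tested genes, whose median was 6.50 CPM per kb. In Trf2-/- testis Cbx1, at 33.6 CPM per kb, stood above Cbx5, at 32.5 CPM per kb, and Suv39h1, at 10.0, above Suv420h1, at 9.13, the last pair with overlapping ranges. The order turns on the gene length used. Per kb of annotated exon bases, a length chosen after seeing the data, Suv420h1 was lowest in WT at 5.83 and Suv39h2 next at 6.79, and in Trf2-/- testis Cbx1 (30.0) stayed below Cbx5 (32.5). Counts per mouse ran from 523 to 21805 for these genes.

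The promoters of the 4 genes that passed the test are shown because TRF2 acts in transcription initiation. Each line holds the 100 bases before the RefSeq start, 5′ to 3′ on the strand of the gene, from build GRCm38.p6, and for Ehmt2 the window of the first of its listed starts. Capitals mark the letters GGGCGG of a GC box, the letters CCAAT, bound by NF-Y, or the core TGACG of a cAMP response element, searched on both strands.
Trim28 (chr7:13024052-13024151, plus strand): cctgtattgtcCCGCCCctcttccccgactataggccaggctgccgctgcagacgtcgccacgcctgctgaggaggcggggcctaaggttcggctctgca
Ehmt2 (chr17:34898374-34898473, plus strand): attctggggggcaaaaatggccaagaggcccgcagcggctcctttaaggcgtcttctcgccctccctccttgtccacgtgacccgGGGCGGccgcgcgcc
Atrx (chrX:105929373-105929472, minus strand): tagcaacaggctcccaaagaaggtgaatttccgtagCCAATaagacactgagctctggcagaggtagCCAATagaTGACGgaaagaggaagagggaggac
Cbx1 (chr11:96789035-96789134, plus strand): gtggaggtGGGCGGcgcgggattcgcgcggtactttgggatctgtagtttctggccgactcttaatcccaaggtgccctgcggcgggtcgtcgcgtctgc
The windows of Trim28, Ehmt2 and Cbx1 held a GC box and neither other motif, and the window of Atrx held CCAAT and TGACG without a GC box. Atrx had 2 CG dinucleotides, against 8 in Trim28, 10 in Ehmt2 and 12 in Cbx1 and a median of 3 over 32851 promoters.

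RefSeq lists 15 such windows for the 10 genes, of which 8 genes were matched by symbol and 2, Suv420h1 and Suv420h2, by their current names Kmt5b and Kmt5c. None of the 15 windows held TATAAA, a motif in 5.56% of all promoters. A GC box was present in 12 of the 15 windows, beside 24.7% of all promoter windows. CCAAT was present in 4 windows (18.9%) and TGACG in 4 windows (10.5%). Counting any window of a gene, 8 of the 10 genes held a GC box. The 15 windows had 48% to 84% GC, against a median of 55% over all promoter windows. The part of this GC content in the count of GC boxes was not tested. Suv39h2 held the full palindromic cAMP response element with a GC box downstream of it.
Suv39h2 (chr2:3474987-3475086, minus strand): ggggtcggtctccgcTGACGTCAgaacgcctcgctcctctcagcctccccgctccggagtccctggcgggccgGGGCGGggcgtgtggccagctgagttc
The letters describe the windows and show no binding.

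The HP1 genes form the reader module of this chromatin. Cbx1 (ENSMUSG00000018666), on the plus strand of chr11:96650441-96669954 of NCBIM37, encodes HP1 beta. Its levels were 115, 117 and 113 CPM in WT and 128, 129 and 128 CPM in Trf2-/- testis, so all mutant mice lay above all WT mice by a small margin. The mean went from 115 ± 2.09 CPM (SD, n = 3) to 128 ± 0.403 CPM (SD, n = 3), a log2 fold change of 0.15 (SE 0.04, 95% interval 0.06 to 0.25, adjusted p = 0.0222 by edgeR's quasi-likelihood test with Benjamini-Hochberg adjustment). This call was lost in DESeq2, with an adjusted p of 0.0583. It was also lost in the edgeR fit without any 1 of WT mice 1, 2 and 3 (adjusted p = 0.0723, 0.0677 and 0.0839) or of Trf2-/- mice 1 and 2 (adjusted p = 0.0950 and 0.0763), with log2 fold changes between 0.14 and 0.16.

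Cbx5 (ENSMUSG00000009575), which encodes HP1 alpha and lies on the minus strand of chr15:103021975-103070247, showed no difference that passed the test. Its levels were 297, 286 and 283 CPM in WT and 301, 283 and 295 CPM in Trf2-/- testis, and the genotypes overlapped. The log2 fold change was 0.02 (95% interval -0.08 to 0.12, adjusted p = 0.769 by edgeR's quasi-likelihood test). Cbx3 (ENSMUSG00000029836), which encodes HP1 gamma, a form found in euchromatin as well, lies on the plus strand of chr6:51420359-51433703. It stood at 30.1, 31.2 and 27.7 CPM in WT and at 31.4, 29.9 and 33.1 CPM in Trf2-/- testis, again with overlap, and its log2 fold change was 0.08 (95% interval -0.08 to 0.24), or 0.03 without WT mouse 3.

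Cbx3 is less certain than the other genes because of its copies in the genome. Of its 2935 windows of 50 bases, the read length, 1601 (54.55%) occur once in NCBIM37, against 95.43% for Cbx1, 97.45% for Suv420h1 and 99.19% to 100% for the others. The repeated windows also lie within the spans, introns included, of 12 other genes. Chief among them is Gm6984, which holds 1320 and was not found by that name in the count table. Gm10068 holds 1031 and had at most 1 count in a mouse. Muted holds 416 and 4930473A06Rik 161, and 4930473A06Rik fell, with a log2 fold change of -0.63 (adjusted p = 0.000282 by edgeR's quasi-likelihood test). Whether the shared windows lie in exons of these genes was not determined. The part of such shared reads in the values of Cbx3 was not tested. How the deposited counts treated such reads was not given in the sources used here.

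Ratios between paralogues are free of the scaling between libraries. Per kb, the HP1 transcripts of WT testis were 39.0% to 39.9% Cbx1, 17.8% to 19.2% Cbx3 and 41.1% to 42.5% Cbx5. In Trf2-/- testis they were 40.9% to 42.5% Cbx1, 17.9% to 19.2% Cbx3 and 39.6% to 40.9% Cbx5, so with either length the share of Cbx1 was higher and that of Cbx5 lower in every mutant mouse than in any WT mouse, and the shares of Cbx3 overlapped. The log2 ratio of Cbx5 to Cbx1 was 0.09 ± 0.04 (SD, n = 3) in WT and -0.05 ± 0.05 (SD, n = 3) in Trf2-/- testis. The difference of -0.13 had p = 0.1 in a exact permutation test, two-sided, the smallest that 3 mice against 3 allow, and 0.4 after adjustment over the 4 pairs compared. The log2 ratio of Cbx3 to Cbx1 was -1.10 ± 0.06 (SD, n = 3) in WT and -1.17 ± 0.08 (SD, n = 3) in the mutants, with overlap (exact permutation p = 0.3, adjusted 0.6).

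**Figure D2:**
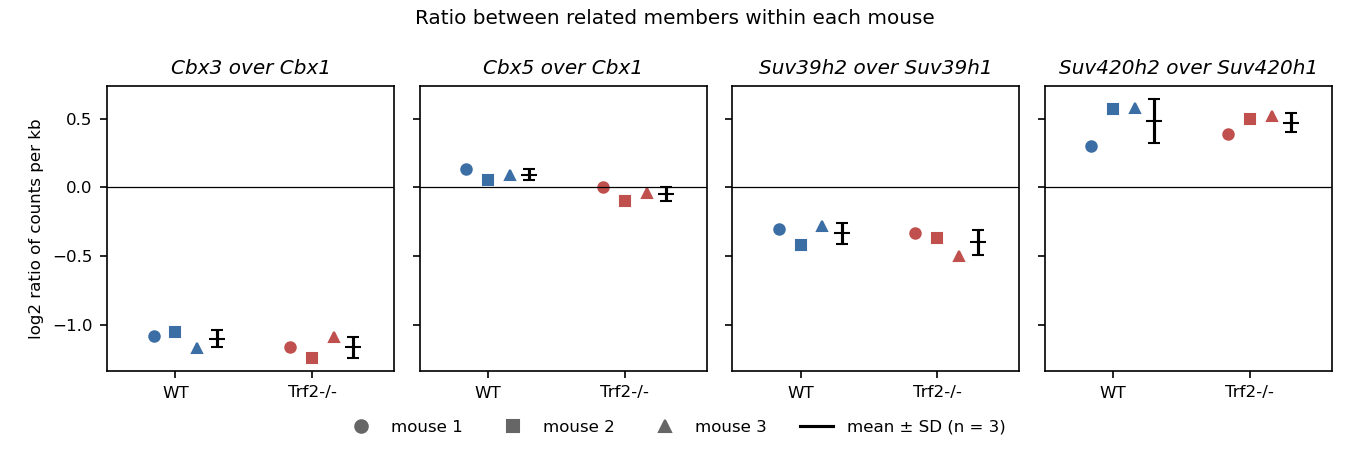
Log2 ratio of the levels per kb within 4 paralogue pairs, with 1 point for each WT or Trf2-/- mouse and bars for the mean ± SD (n = 3). The genotypes are separated for Cbx5 over Cbx1, by a mean of 0.13, and overlap for the other pairs.

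Suv39h1 and Suv39h2 encode the enzymes that trimethylate H3K9 at pericentric repeats, and Suv39h2 is the form known from the germ line. Suv39h1 (ENSMUSG00000039231), on the minus strand of chrX:7638297-7651886, stood at 41.5, 45.3 and 41.0 CPM in WT and at 42.7, 48.2 and 59.0 CPM in Trf2-/- mice. The genotypes overlapped and Trf2-/- mouse 3 was apart from the others. The log2 fold change was 0.22 (SE 0.11, 95% interval -0.02 to 0.47, adjusted p = 0.148 by edgeR's quasi-likelihood test). Without Trf2-/- mouse 1 it was 0.31 (adjusted p = 0.0418 by the same edgeR test) and passed, and without Trf2-/- mouse 3 it was 0.10 (adjusted p = 0.346) and did not.

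Suv39h2 (ENSMUSG00000026646), on the minus strand of chr2:3373087-3392303, was the least abundant of the 10 per kb of deposited length. It stood at 29.9, 30.0 and 29.9 CPM in WT and at 30.2, 33.0 and 37.0 CPM in Trf2-/- mice. The WT mice were almost equal and all mutant mice lay above them, the nearest by a small margin. The log2 fold change of 0.15 (SE 0.08, 95% interval -0.02 to 0.33) did not pass, with an adjusted p of 0.161 by edgeR's quasi-likelihood test, and was 0.09 without Trf2-/- mouse 3. The log2 ratio of Suv39h2 to Suv39h1 was -0.34 ± 0.08 (SD, n = 3) in WT and -0.40 ± 0.09 (SD, n = 3) in Trf2-/- testis (exact permutation p = 0.5, adjusted 0.667). Exons of other genes overlap both on the opposite strand, over 11.3% of the exon bases of Suv39h1 (Gm14820) and over 8.1% (Dclre1c) and 1.88% (Gm13184) of those of Suv39h2.

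Suv420h1 and Suv420h2 encode the enzymes that dimethylate and trimethylate H4K20. Suv420h1 (ENSMUSG00000045098), on the plus strand of chr19:3767421-3818303, stood at 82.5, 83.1 and 75.2 CPM in WT and at 80.7, 82.9 and 91.8 CPM in Trf2-/- mice, with a log2 fold change of 0.08 (95% interval -0.07 to 0.23). Suv420h2 (ENSMUSG00000059851), on the plus strand of chr7:4691717-4699116, stood at 31.2, 37.8 and 34.4 CPM in WT and at 32.3, 36.0 and 40.4 CPM in Trf2-/- mice, with a log2 fold change of 0.07 (95% interval -0.15 to 0.29). The genotypes overlapped in both, and neither passed, with adjusted p of 0.359 and 0.620 by edgeR's quasi-likelihood test. Without Trf2-/- mouse 3 the values were 0.03 for Suv420h1 and -0.01 for Suv420h2, without WT mouse 3 Suv420h1 was at 0.04, and without WT mouse 1 Suv420h2 was at -0.00. Their log2 ratio, Suv420h2 to Suv420h1, was 0.48 ± 0.16 (SD, n = 3) in WT and 0.47 ± 0.07 (SD, n = 3) in Trf2-/- testis (exact permutation p = 1). Gm16066 overlaps 6.73% of the exon bases of Suv420h1 on the opposite strand.

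Trim28 (ENSMUSG00000005566), on the plus strand of chr7:13609501-13616384, encodes the corepressor KAP1 and was by far the most abundant of these transcripts. It stood at 760, 739 and 708 CPM in WT and at 577, 598 and 597 CPM in Trf2-/- mice, and the genotypes were well separated. The mean fell by 19.7%, from 736 ± 26.2 CPM (SD, n = 3) to 591 ± 12.3 CPM (SD, n = 3), a log2 fold change of -0.32 (SE 0.05, 95% interval -0.42 to -0.21, adjusted p = 0.00127 by edgeR's quasi-likelihood test with Benjamini-Hochberg adjustment).

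Ehmt2 (ENSMUSG00000013787), on the plus strand of chr17:35035414-35050997, encodes G9a, which monomethylates and dimethylates H3K9, mainly outside the satellites. It stood at 244, 227 and 216 CPM in WT and at 183, 199 and 186 CPM in Trf2-/- mice. The genotypes did not overlap, and the highest mutant mouse was below the lowest WT mouse. The mean fell by 17.4%, from 229 ± 14.5 CPM (SD, n = 3) to 189 ± 8.43 CPM (SD, n = 3), a log2 fold change of -0.27 (SE 0.06, 95% interval -0.41 to -0.14, adjusted p = 0.00746 by edgeR's quasi-likelihood test).

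Atrx (ENSMUSG00000031229), on the minus strand of chrX:102992954-103124736, encodes the remodeller that works with the histone chaperone DAXX. It stood at 122, 124 and 130 CPM in WT and at 162, 152 and 170 CPM in Trf2-/- mice, and every mutant mouse lay above every WT mouse. The mean rose by 28.8%, from 125 ± 4.07 CPM (SD, n = 3) to 161 ± 9.11 CPM (SD, n = 3), a log2 fold change of 0.37 (SE 0.05, 95% interval 0.24 to 0.49, adjusted p = 0.00144 by edgeR's quasi-likelihood test). Atrx and Suv39h1 are the X-linked genes of the set. Over the 647 tested genes of chromosome X the median log2 fold change was 0.20, 22.1% rose and 1.24% fell, and the part of this shift in the values of Atrx and Suv39h1 was not tested.

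**Figure D3:**
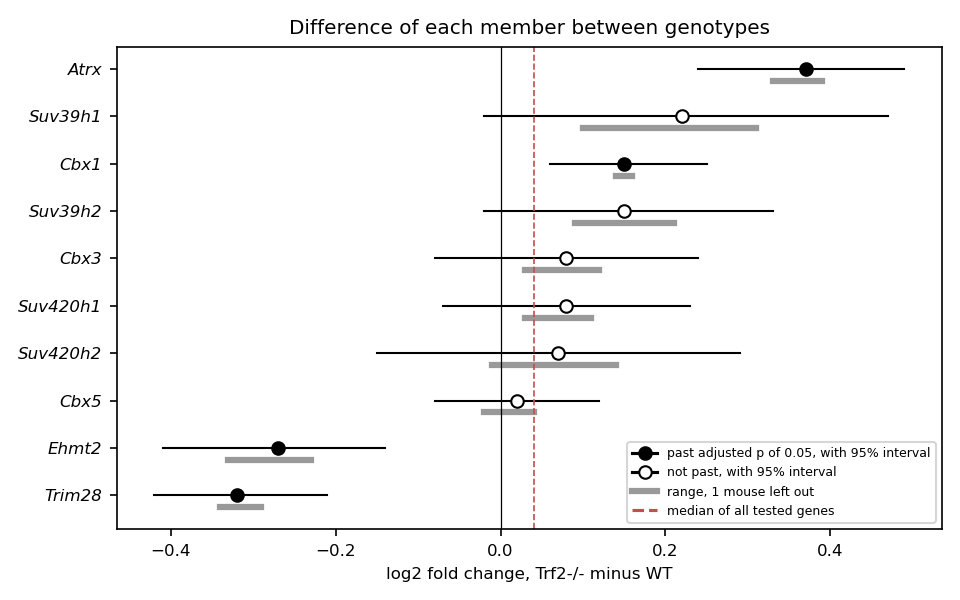
Log2 fold change of each of the 10 genes, Trf2-/- minus WT, with its 95% interval from edgeR (black line), the range with 1 mouse left out (gray bar) and the median of all tested genes (dashed line). The intervals of Trim28 and Ehmt2 lie below 0, those of Atrx and Cbx1 above 0, and those of the other 6 genes include 0.

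The 6 genes that did not pass had intervals between -0.15 and 0.47 and adjusted p between 0.148 and 0.769 by edgeR's quasi-likelihood test, so changes of these sizes were not resolved. Of the 10 genes 6 had their highest CPM in Trf2-/- mouse 3, the library with the fewest counts, and 5 had their lowest in WT mouse 3. The shares of all tested genes with these extremes were not determined, so the counts are not read as a trait of the 10 genes. Leaving out any 1 mouse ended no call of Trim28, Ehmt2 or Atrx.

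**Figure D4:**
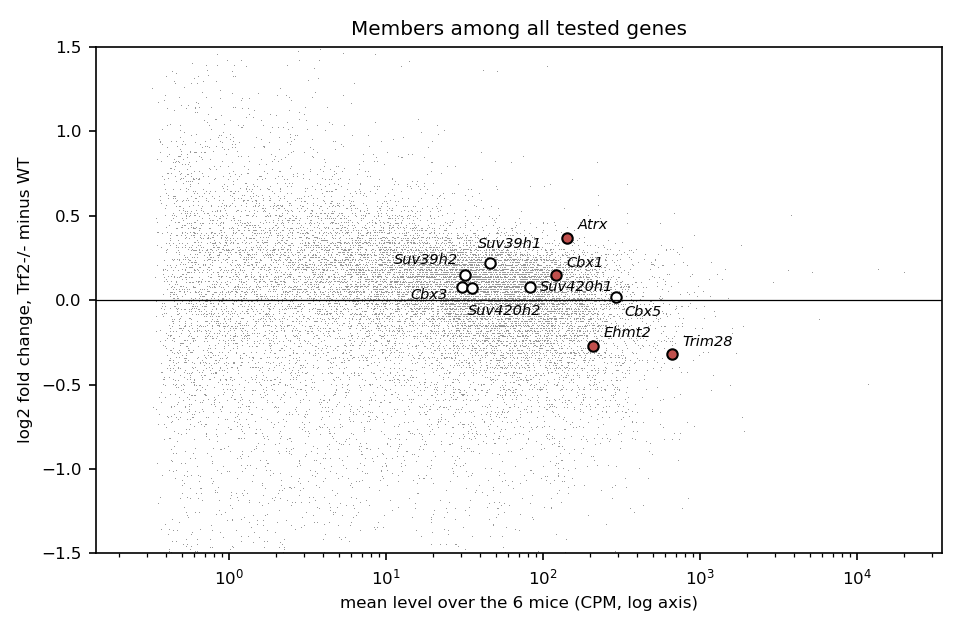
Log2 fold change, Trf2-/- minus WT, against the mean CPM over the 6 mice on a log axis, with gray points for all tested genes inside the plotted range and circles for the 10 genes, filled where they passed the adjusted p. The 10 circles lie within 0.37 of 0, and 354 genes fall outside the plotted range of -1.5 to 1.5.

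The genes whose levels moved most like those of the 3 firmest genes over the 6 mice were found by the root mean square distance of log2 CPM centred on each gene's mean. They were 2410002I01Rik, Ip6k1 and Tctn2 for Trim28 (0.0164, 0.0185 and 0.0195), Iqce, 4933433G15Rik and Sh2b3 for Ehmt2 (0.0171, 0.0240 and 0.0249), and Mapk14, Bnc2 and Mtss1l for Atrx (0.0230, 0.0256 and 0.0270). None of these 9 genes belongs to the heterochromatin lists described below. Those lists hold 55 of the 16924 tested genes, so their absence among 9 genes was likely for any gene. It is not read as a trait of the 3 genes.

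A further 55 genes with roles in heterochromatin or in related histone and DNA marks were listed by role, and all 55 were tested. Many of them act mainly or also outside chromocenters. Of these 20 (36.4%) passed the adjusted p, 13 lower and 7 higher, beside 31.4% of all tested genes, 20.2% lower and 11.2% higher. The counts by role below are small and are to be read beside these shares. Their median log2 fold change was 0.04, equal to that of all genes, and 1 changed by 2-fold or more. With library size alone 29 passed, 10 lower and 19 higher, and without WT mouse 2, 14 passed, 11 lower and 3 higher.

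Among 10 partners in H3K9 methylation 1 rose, 2 fell and 7 did not pass. Ehmt1, which encodes GLP, the enzyme that pairs with G9a, rose from 61.4 ± 3.44 to 72.7 ± 4.68 CPM (SD, n = 3 each), a log2 fold change of 0.24. Its call was lost without WT mouse 1 (0.19, adjusted p = 0.0916 by edgeR) or WT mouse 2 (0.26, adjusted p = 0.0538 by edgeR). Prdm2, a further methyltransferase gene, fell from 140 ± 2.40 to 110 ± 7.11 CPM (log2 fold change -0.34). Morc2a, which encodes an ATPase that acts with the HUSH silencing complex, had a log2 fold change of -0.15, and its call was lost in 8 of 12 alternatives. Mphosph8, a HUSH subunit gene and the most abundant of the list per kb, had a log2 fold change of -0.08 and did not pass.

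The largest changes past the adjusted p were among the 10 genes of H3K9 demethylation, of which 2 rose, 3 fell and 5 did not pass. Phf2 stood at 110, 101 and 105 CPM in WT and at 47.9, 56.5 and 46.1 CPM in Trf2-/- mice, a log2 fold change of -1.07 (SE 0.08, adjusted p = 0.000176 by edgeR's quasi-likelihood test). Kdm4d, a demethylase gene expressed in germ cells, stood at 105, 95.6 and 104 CPM in WT and at 60.0, 66.0 and 57.3 CPM in the mutants, a log2 fold change of -0.73 (SE 0.07, adjusted p = 0.000321 by the same edgeR test). In both genes the mutant mice lay far below WT. Kdm4b (0.20) and Jhdm1d (0.26) rose on the log2 scale. The call of Kdm4b was lost in edgeR without Trf2-/- mouse 1 (adjusted p = 0.0680), WT mouse 2 (0.108) or WT mouse 3 (0.0864), and that of Jhdm1d without WT mouse 2 (0.0570). Kdm3a, the most abundant of the list per kb and known for its part in the packaging genes of spermatids, had a log2 fold change of -0.13 with an adjusted p of 0.0492 by edgeR's quasi-likelihood test. This call was lost in each of the 12 alternatives, while the fold change stayed negative.

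Of 5 genes of H4K20 methylation and its readers 1 rose, 1 fell and 3 did not pass. Lrwd1, which encodes a partner of the origin recognition complex that binds heterochromatin, fell from 302 ± 8.56 to 198 ± 18.8 CPM (SD, n = 3 each), a log2 fold change of -0.60, and L3mbtl3, which encodes an MBT domain protein, rose by 0.31 on the log2 scale. Of 6 partners of ATRX and H3.3 genes 2 rose, 1 fell and 3 did not pass. Daxx stood at 162, 157 and 143 CPM in WT and at 121, 125 and 127 CPM in Trf2-/- mice, a log2 fold change of -0.31 (SE 0.06, adjusted p = 0.00311 by edgeR's quasi-likelihood test), so it fell while Atrx rose. H3f3b, which encodes H3.3, stood at 631, 644 and 633 CPM in WT and at 744, 739 and 720 CPM in the mutants (log2 fold change 0.21).

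Of 8 genes of DNA methylation 1 rose, 1 fell and 6 did not pass. Uhrf1, which guides maintenance methylation, fell from 141 ± 2.65 to 111 ± 1.77 CPM (SD, n = 3 each; log2 fold change -0.33), Dnmt3a rose from 95.2 ± 5.63 to 114 ± 8.02 CPM (0.26, a call lost without WT mouse 1, adjusted p = 0.0765 by edgeR), and Dnmt1, the maintenance enzyme, had a log2 fold change of 0.00. Of 12 HP1-binding and chromatin assembly genes 4 fell, 0 rose and 8 did not pass, beside 20.2% of all tested genes that fell and 11.2% that rose. Chaf1a (-0.40) and Chaf1b (-0.45), which encode subunits of the assembly factor CAF-1, fell together on the log2 scale, as did the nucleoporin gene Ahctf1 (-0.23). The deacetylase gene Hdac1 also passed (-0.25), but its call was lost with library size (adjusted p = 0.111 by edgeR) and without any 1 mouse but Trf2-/- mouse 1 (adjusted p from 0.0528 to 0.106 by edgeR). Of 4 genes of chromocenter organisation in spermatids 1 fell and 3 did not pass. Chd5, a remodeller gene of the spermatid, stood at 9.90, 9.84 and 10.3 CPM in WT and at 5.00, 6.22 and 7.90 CPM in Trf2-/- mice, a log2 fold change of -0.67, whereas Brdt, which encodes a bromodomain protein of meiotic and haploid cells, had a log2 fold change of -0.12 with an adjusted p of 0.0773 by edgeR's quasi-likelihood test. The round spermatid markers above fell in the same mice, and their part in these changes was not tested.

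**Figure D5:**
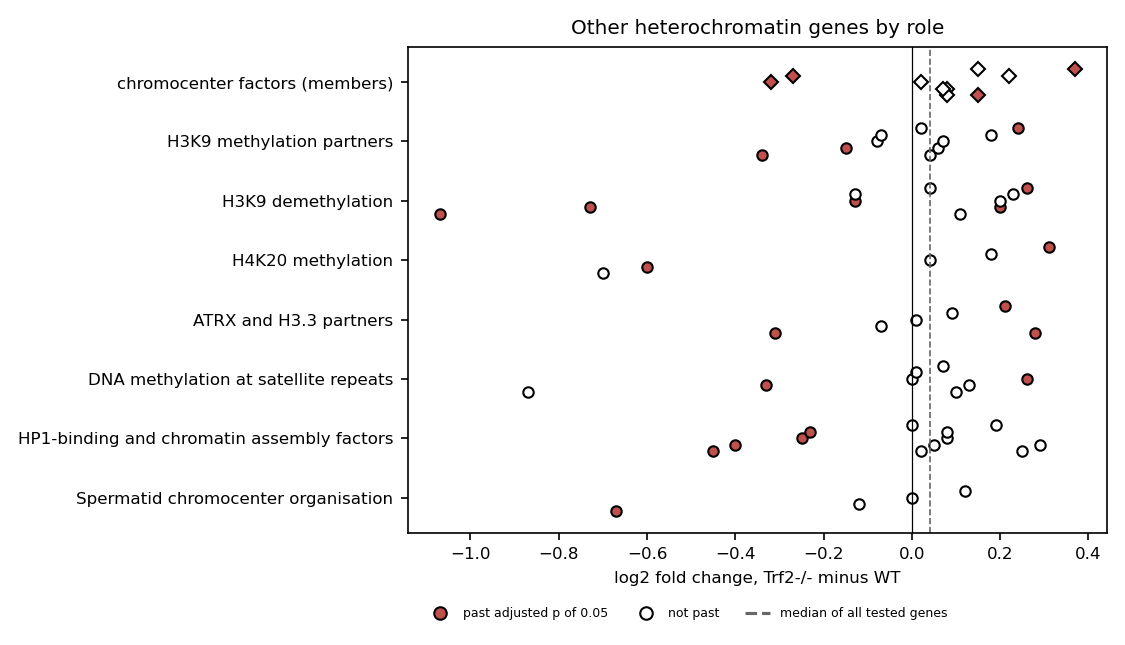
Log2 fold change, Trf2-/- minus WT, of the 10 genes (diamonds) and of the 55 other heterochromatin genes (circles) by role, filled where they passed the adjusted p, with a dashed line at the median of all tested genes. The 10 genes lie between -0.32 and 0.37, while Phf2 reaches -1.07.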

How the data were processed

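Total RNA libraries (TruSeq Stranded, Ribo-Zero Gold, single-end reads of 50 bases) were aligned to mm9 (NCBIM37). The submitters' processing notes name CASAVA 1.8.2, TopHat2 2.0.10, Bowtie2 2.1.0, HTSeq 0.5.4p3 and DESeq2 1.0.19. The authors deposited raw read counts per gene for 3 mice per genotype, with gene lengths, and these counts were the only measurements used. The 12 columns of normalized values were not used. The strand setting and the annotation release of the counting were not given in the sources used here.

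The 16924 genes kept by filterByExpr (99.9% of counts) were scaled by TMM and compared by the two-sided quasi-likelihood test of edgeR 4.0.16 in R 4.3.3, with Benjamini-Hochberg adjustment. Calls used an adjusted p of 0.05, and SEs came from the fold change and the F statistic. The biological coefficient of variation was 0.0838, and 3 counts, the limit set by a count of 0, equal 0.105 to 0.190 CPM, for counting error only. Paralogue ratios used an exact permutation test. Alternatives were library size, DESeq2 size factors, the Wald test of DESeq2 1.42.0, other count filters, a replicate block, an adjusted p of 0.01 and each mouse left out. The model was tested on simulated data.

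The members, the role lists and the marker lists (germ cells in 5 stages from spermatogonium to elongating spermatid, and 5 somatic types) were chosen with earlier results of these data known. Of the other heterochromatin genes, those named are the genes of a role group past the adjusted p if at most 4, otherwise the 2 largest rises and 2 largest falls, and the most abundant per kb. The values of 1 such gene are not reported here. For Atf7ip, which has 2 gene models, the longer was used. No pair of libraries of the same genotype differed by less than sampling noise (chi-square over its degrees of freedom 3.32 to 10.3).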

Additional observations from a re-analysis of the deposited data

How the results depend on the processing

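Trim28 (log2 fold change -0.34 to -0.22), Ehmt2 (-0.33 to -0.18) and Atrx (0.33 to 0.46) kept direction and call under every alternative fitted. The number of the 10 genes past the adjusted p ran from 3 to 6. Cbx1 did not pass with DESeq2's Wald test (0.15) nor without 5 of the 6 mice (leave-one-out range 0.14 to 0.16). With library size alone Suv39h1 (0.32, adjusted p = 0.0484 by edgeR) and Suv39h2 (0.25, adjusted p = 0.0366 by edgeR) passed. Leaving out 1 mouse gave 0.03 to 0.12 for Cbx3, 0.09 to 0.21 for Suv39h2, 0.03 to 0.11 for Suv420h1, -0.02 to 0.04 for Cbx5, 0.10 to 0.31 for Suv39h1 and -0.01 to 0.14 for Suv420h2 (-0.00 without WT mouse 1), so the sign of Cbx5 and Suv420h2 is not settled. At an adjusted p of 0.01, 11 of the 55 other genes passed, 2 higher and 9 lower, and 14 to 19 passed with 1 mouse left out. Mphosph8 was 0.01 with library size, and Dnmt1 was -0.01 with 10 counts in every mouse, -0.00 with DESeq2's test or size factors and -0.04 to 0.03 with 1 mouse left out. Of 276 alternative values of 23 other genes 234 kept direction and call, 36 lost the call and 6 changed sign. Kdm3a lost its call in all 12 alternatives, Morc2a in 8 and Hdac1 in 7. Over all genes 3413 passed without WT mouse 1 and 3470 without WT mouse 2, against 5312. The cause was not tested.

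The shared replicate numbers gave no sign of pairing: the deviations of same-numbered mice correlated at -0.0973, -0.0313 and -0.102, and not every mouse correlated best with its own number. With 3 mice per genotype this cannot exclude a pairing. With the replicate number as a block 4 of the 10 genes and 18 of the 55 other genes passed, and 4580 genes in all. The log2 difference of Cbx5 over Cbx1 was -0.13 in pairs. With 3 complete pairs this mean equals the difference of the group means by arithmetic, so it is no separate check. The 3 mice per genotype set the smallest exact p at 0.1, and no change under the intervals given was resolved.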
